A study of Mus musculus with 5 samples.

Results

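The genes described here are 10 components of the Notch pathway, chosen by gene symbol from the 23441 gene rows of a table of read counts. They comprise the receptor genes Notch1, Notch2 and Notch3, the ligand genes Jag1, Jag2 and Dll1, the effector genes Hes1, Hey1 and Heyl, and Lfng, whose product modifies the receptors. All 10 symbols had a row, and all 10 passed the filter on low counts. The 5 libraries were made from poly(A) RNA of mandibular tissue, taken from mouse embryos at embryonic day 10.5. The 2 dCKO (double conditional knockout) libraries had the genotype Wnt1Cre; Yapf/f, Tazf/f on a C57BL/6J x CBA/J; 129SvEv background. The 3 control libraries had the genotype Yapf/f, Tazf/f, with no Cre named, on a 129SvEv background. All 5 libraries therefore share the floxed alleles, and strain background and genotype cannot be told apart. Wnt1Cre acts in cells of the premigratory neural crest and their descendants, so epithelium, arch mesoderm, endothelium and blood in the same tissue are not its targets. The labels do not say whether each library came from a separate embryo or from a pool, and the p-values below reflect the spread between these 5 samples alone, which may be technical.

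Notch is a receptor read out by direct contact between cells. A Jagged or Delta ligand on 1 cell pulls on a Notch receptor on its neighbour, the receptor is cut by ADAM proteases and gamma-secretase, and its intracellular domain joins RBPJ and Mastermind in the nucleus to switch on Hes and Hey genes. In mice, Jag1 in the cranial neural crest is needed for growth of the midface, Notch signalling within neural crest cells is needed for them to form smooth muscle of the great arteries, and Notch3 and Heyl are known from mural cells of vessels. The title of the study names smooth muscle development as its subject.

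The RefSeq promoter sequences of 7 of the 10 genes were found by symbol (GRCm38.p6): Notch1, Notch2, Notch3, Jag1, Jag2, Dll1 and Lfng. Hes1, Hey1 and Heyl were not among them. The 250 bases before the annotated start are shown for Jag2 and Jag1, because among these related Jagged ligands Jag2 passed the test given below and Jag1 had a fold change near 0, and for Lfng, because it held the core letters known from RBPJ binding (TGGGAA or, on the other strand, TTCCCA, in capitals). Each runs 5′ to 3′ on the strand of its gene.
Jag2 promoter, chr12:112929496-112929745, minus strand: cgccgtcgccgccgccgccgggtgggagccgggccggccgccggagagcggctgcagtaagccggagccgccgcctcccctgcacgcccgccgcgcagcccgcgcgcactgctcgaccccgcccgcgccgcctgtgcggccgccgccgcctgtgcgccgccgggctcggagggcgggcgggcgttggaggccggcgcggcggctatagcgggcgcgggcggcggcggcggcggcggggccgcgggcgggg
Jag1 promoter, chr2:137116521-137116770, minus strand: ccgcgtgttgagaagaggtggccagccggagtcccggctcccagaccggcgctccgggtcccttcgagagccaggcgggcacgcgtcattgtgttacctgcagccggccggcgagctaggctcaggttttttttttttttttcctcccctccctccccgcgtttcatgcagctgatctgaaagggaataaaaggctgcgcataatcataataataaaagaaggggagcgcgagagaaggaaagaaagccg
Lfng promoter, chr5:140607091-140607340, plus strand: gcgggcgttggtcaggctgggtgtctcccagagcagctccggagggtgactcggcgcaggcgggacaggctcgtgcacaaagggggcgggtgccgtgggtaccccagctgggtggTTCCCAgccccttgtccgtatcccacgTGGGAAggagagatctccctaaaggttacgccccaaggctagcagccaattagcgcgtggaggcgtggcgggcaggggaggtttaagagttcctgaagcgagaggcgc
The Jag2 window was 87.2% G or C with 54 CpG dinucleotides, whereas the Jag1 window was 57.2% G or C with 20. The RBPJ letters were found 2 times in Lfng, beginning 135 and 108 bases before the start, and in none of the other 6 genes. Of all 32851 promoter windows of 250 bases, 21.6% held them. The letters CATTCC or GGAATG, the core known from TEAD binding, the partners of YAP and TAZ, were found 2 times in Notch1 and in none of the other 6, against 12.6% of all windows. The letters CACNAG or CTNGTG, known as the N-box bound by Hes proteins, were found in 4 of the 7 (Notch1, Notch2, Notch3 and Lfng), against 36.7% of all windows. Such a match describes the letters of a window and does not show that a factor binds there.

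The dCKO libraries held 11346480 and 13298973 counts and the controls 6491137 to 7439419. Levels are given as CPM, the count of a gene over the total of its library scaled with TMM. Yap1 had 175 and 170 CPM in the dCKO libraries and 312, 475 and 512 CPM in the controls, and Wwtr1, the gene symbol of Taz, had 22.7 and 22.8 CPM in the dCKO libraries and 38.4, 65.1 and 66.2 CPM in the controls, so for both targeted genes the dCKO libraries lay below every control. Of the 12710 genes that could be tested, 816 (6.42%) were called at a Benjamini-Hochberg adjusted p below 0.05 in edgeR's quasi-likelihood test, the threshold used throughout. Of these, 636 were higher (5% of those tested) and 180 lower (1.42%), and with libraries scaled by total counts alone the split was 531 higher and 469 lower. Some libraries stood apart. Embryonic globins took 7.43% and 5.30% of counts in the dCKO libraries against 0.335% to 0.441% in the controls, and among the controls replicate 3 lay farthest from the others of its group, at a median distance of 0.20 on the log2 scale. Without control replicate 3, the number of genes called was 1637, so values without it are given for each result that changes.

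Of the 10 Notch genes, Jag2 alone passed the test, as higher in dCKO tissue, and none passed as lower. On the log2 scale 8 of the 10 had a positive fold change, against 49.9% of all tested genes. Their fold changes on the log2 scale ran from −0.13 for Notch2 to 1.28 for Heyl, with a median of 0.41, where the median of all tested genes was near 0 (−0.00062). Before adjustment, 4 of the 10 (Notch1, Jag2, Heyl and Lfng) had a p below 0.05, against 21.5% of all tested genes. In 4 of the 10 (Jag2, Dll1, Heyl and Lfng) both dCKO libraries lay above all 3 controls, where 19% of all tested genes did so and 37.6% were separated in either direction. In a bulk tissue, fewer cells of a type and less RNA per cell cannot be told apart.

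**Figure D1:**
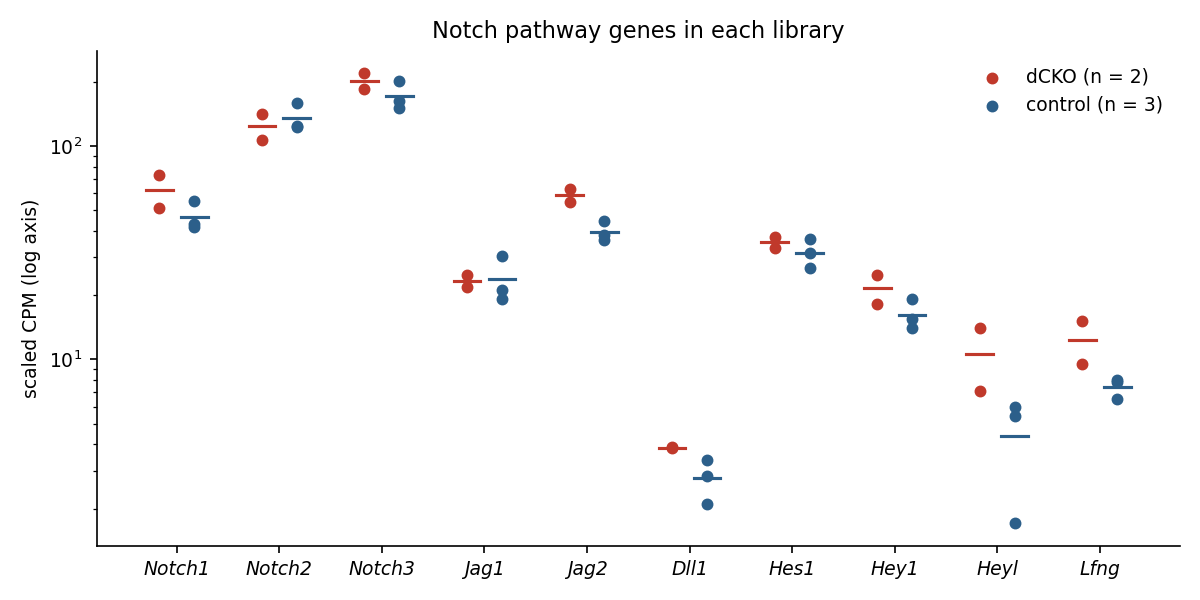
Scaled CPM of each Notch gene in every library (log axis), dCKO (red, n = 2) beside control (blue, n = 3), with short lines at the group means. The groups separate for Jag2, Dll1, Heyl and Lfng, with both dCKO points above all 3 control points, and overlap for the other 6.

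Per kilobase of exon, so that genes of different length can be compared, the receptor gene Notch3 was the most abundant member, with 24.9 ± 3.05 CPM per kb in dCKO tissue (SD, n = 2) and 21.2 ± 3.21 CPM per kb in control tissue (SD, n = 3). Hes1 came next, at 17.4 ± 1.39 CPM per kb in dCKO tissue and 15.5 ± 2.45 CPM per kb in control tissue. Notch2 followed with 11.4 ± 2.22 CPM per kb in dCKO tissue and 12.5 ± 1.93 CPM per kb in control tissue. With the length of the longest transcript in place of all exons, Hes1 had 21.5 CPM per kb in the controls and Notch3 21.4, so their order there depended on the length used. Among the ligands, Jag2 had 8.41 ± 0.86 CPM per kb in dCKO tissue and 5.68 ± 0.61 CPM per kb in control tissue, and Jag1 had 4.002 ± 0.343 CPM per kb in dCKO tissue and 4.06 ± 1.04 CPM per kb in control tissue. Jag2 lay above Jag1 in both dCKO libraries, whereas their ranges overlapped in the controls, where Jag2 began at 5.19 and Jag1 reached 5.25 CPM per kb. Hey1, Lfng, Notch1 and Jag1 lay between 4.002 and 6.58 CPM per kb in dCKO tissue and between 2.97 and 4.95 CPM per kb in control tissue. From high to low the order was Hey1, Lfng, Notch1 and Jag1 in dCKO tissue and Hey1, Jag1, Notch1 and Lfng in control tissue, and neighbours in each order overlapped between libraries of that group. With the length of the longest transcript, Notch1 came next after Hey1 in both groups. It then had 6.54 CPM per kb in dCKO tissue and 4.92 CPM per kb in control tissue, so these orders also depended on the length used. The lowest levels belonged to Heyl, with 2.07 ± 0.96 CPM per kb in dCKO tissue and 0.853 ± 0.452 CPM per kb in control tissue, and to Dll1, with 0.914 ± 0.009 CPM per kb in dCKO tissue and 0.656 ± 0.150 CPM per kb in control tissue. Heyl stood above Dll1 in both dCKO libraries, whereas the levels of these genes overlapped among the controls.

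Jag2 encodes a Jagged ligand of Notch receptors. It had 62.8 and 54.4 CPM in the dCKO libraries and 38.4, 36.1 and 44.3 CPM in control replicates 1, 2 and 3. Both dCKO libraries lay above every control, and the lower dCKO library exceeded the highest control by more than the controls differed among themselves. The group means were 58.6 ± 6.00 CPM in dCKO tissue (SD, n = 2) and 39.6 ± 4.23 CPM in control tissue (SD, n = 3), a log2 fold change of 0.57 (SE 0.14, adjusted p = 0.0186 in edgeR). The authors' deposited table gives Jag2 a log2 fold change of 0.59 and an adjusted p of 0.0222, and it is the only one of the 10 genes below 0.05 there. The call was lost without control replicate 1 (adjusted p = 0.0863 in edgeR), without control replicate 2 (adjusted p = 0.0897 in edgeR) and without dCKO replicate 1 (adjusted p = 0.251 in edgeR). Without control replicate 3 Jag2 passed at a log2 fold change of 0.64 (SE 0.14, adjusted p = 0.00948 in edgeR), and over all libraries left out in turn the fold change ran from 0.47 to 0.67.

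Jag2 transcripts are rich in G and C (61.9%), and fold changes followed GC content over the whole table. Among all tested genes split into 5 bins of near-equal size by the GC content of their transcripts, the median log2 fold change was −0.20, −0.10, −0.01, 0.10 and 0.21 from the lowest bin to the highest. Of the Notch genes, 4 fell in the highest bin (Notch1, Notch3, Jag2 and Lfng), 4 in the next (Notch2, Dll1, Hey1 and Heyl) and 2 in the middle (Jag1 and Hes1). When the dependence of expression on GC content was removed within each library, the median log2 fold change of the 10 genes was 0.23 and that of all tested genes −0.04. In that setting Jag2 had a log2 fold change of 0.29 (SE 0.12, adjusted p = 0.199 in edgeR), and none of the 10 passed the test.

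**Figure D2:**
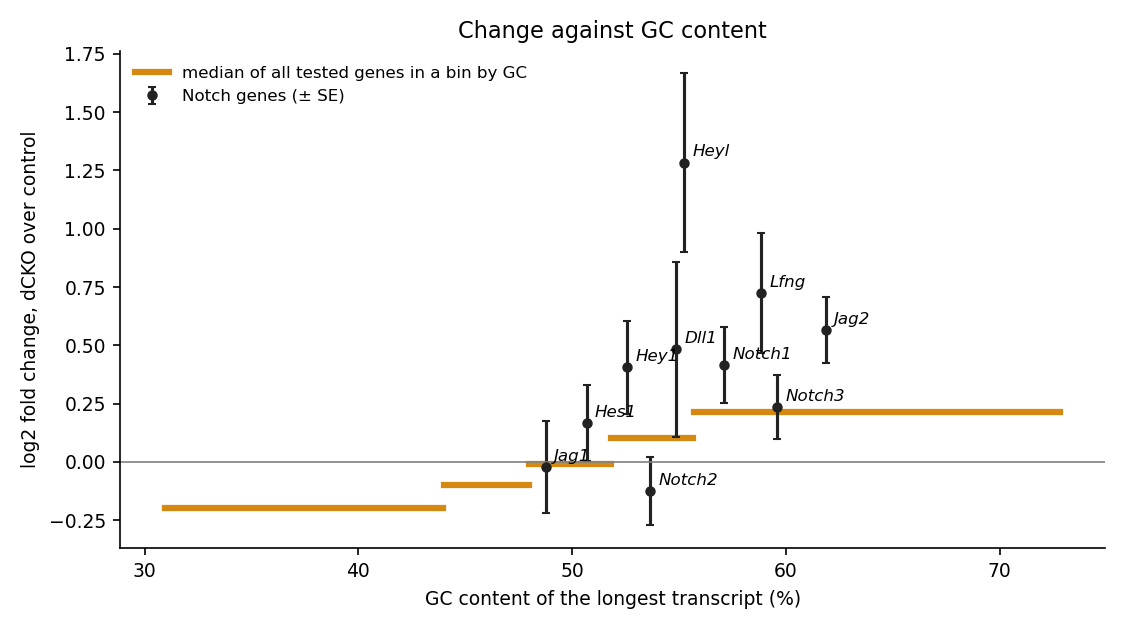
Log2 fold change (dCKO over control, ± SE) of the Notch genes against the GC content of the longest transcript in percent, with the median of all tested genes in each of 5 bins by GC content (orange). The medians climb from −0.20 in the lowest bin to 0.21 in the highest, and Jag2, the most GC-rich Notch gene, lies at 61.9% and 0.57.

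Jag1, the other Jagged ligand and the one studied most in neural crest, overlapped between the groups. It had 21.9 and 24.7 CPM in the dCKO libraries and 21.2, 30.6 and 19.2 CPM in the controls. The controls spanned the whole dCKO range, and the log2 fold change was −0.02 (SE 0.20, adjusted p = 0.964 in edgeR). Dll1, a Delta-like ligand known from somites and neural progenitors, was scarce, with 42 and 50 counts in the dCKO libraries and 16, 21 and 22 counts in the controls. Scaled, these were 3.88 and 3.83 CPM in the dCKO libraries and 2.10, 2.84 and 3.36 CPM in the controls. The groups did not overlap, but the exact Poisson intervals (95%, counting error only) of dCKO replicate 1 (2.80 to 5.25 CPM) and control replicate 3 (2.11 to 5.09 CPM) did, and the log2 fold change of 0.48 (SE 0.38, adjusted p = 0.485 in edgeR) did not pass. A difference in Dll1 was not detectable with these counts and libraries.

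Among the receptors, none passed the test. Notch1, a receptor known from endothelium, epithelium and lymphocytes, had 51.0 and 73.1 CPM in the dCKO libraries and 43.1, 41.7 and 55.2 CPM in the controls. Control replicate 3 lay above dCKO replicate 1, and the log2 fold change was 0.42 (SE 0.16, adjusted p = 0.140 in edgeR). Without control replicate 3, Notch1 passed at a log2 fold change of 0.54 (SE 0.16, adjusted p = 0.0459 in edgeR). In that fit 12.7% of all tested genes were called. Without dCKO replicate 2 the log2 fold change of Notch1 was 0.14 (SE 0.19, adjusted p = 0.784 in edgeR), and it passed in 1 of the 5 fits that left out a library. Notch2, a partner of Jag1 in several tissues, had 106 and 140.3 CPM in the dCKO libraries and 122, 124 and 159 CPM in the controls, a log2 fold change of −0.13 (SE 0.15, adjusted p = 0.669 in edgeR). Notch3, the receptor of vascular smooth muscle and pericytes, had 184 and 219 CPM in the dCKO libraries and 151, 162 and 200.4 CPM in the controls, a log2 fold change of 0.23 (SE 0.14, adjusted p = 0.332 in edgeR). For all 3 receptors control replicate 3 was the highest control, and the groups overlapped. Without that library the log2 fold change was 0.00081 (SE 0.13) for Notch2 and 0.36 (SE 0.11, adjusted p = 0.0591 in edgeR) for Notch3. With the GC trend removed, Notch3 stood at −0.04 (SE 0.11).

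Lfng encodes Lunatic fringe, a glycosyltransferase that adds sugar to Notch receptors and changes which ligands they answer to. It had 15.2 and 9.50 CPM in the dCKO libraries and 8.01, 6.49 and 7.79 CPM in the controls. The groups did not overlap, yet the dCKO libraries differed from each other by more than the lower of them differed from the highest control. The log2 fold change was 0.72 (SE 0.26, adjusted p = 0.103 in edgeR). It was 0.36 (SE 0.33, adjusted p = 0.704 in edgeR) without dCKO replicate 1, 1.03 (SE 0.30, adjusted p = 0.0612 in edgeR) without dCKO replicate 2 and 0.44 (SE 0.25) with the GC trend removed.

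The effectors Hes1, Hey1 and Heyl encode basic helix-loop-helix repressors switched on by Notch. Heyl showed the largest fold of the 10 genes without passing the test. It had 14.0 and 7.12 CPM in the dCKO libraries and 1.71, 5.41 and 5.96 CPM in control replicates 1, 2 and 3. Both dCKO libraries lay above every control, but dCKO replicate 2 stood nearer to control replicates 2 and 3 than to dCKO replicate 1, and control replicate 1 rested on 13 counts. The log2 fold change was 1.28 (SE 0.38, adjusted p = 0.0526 in edgeR), and the authors' deposited table gives 1.28 with an adjusted p of 0.520. Its call turned on small choices. With no filter on low counts its log2 fold change was 1.29 with a smaller SE (0.28). The adjusted p of Yap1 in edgeR was also smaller there, 1.47e-23 against 1.31e-05 in the main fit. The adjusted p of Heyl in that fit is therefore not comparable with those of the other fits. Heyl passed with RLE size factors (adjusted p = 0.0494 in edgeR), with the erythroid genes kept out of the scaling (adjusted p = 0.0472 in edgeR) and with no filter on low counts (adjusted p = 0.000244 in edgeR), and also without control replicate 2, control replicate 3 or dCKO replicate 2 (edgeR adjusted p from 0.0153 to 0.0385). Without control replicate 1 or dCKO replicate 1 it did not pass, and the log2 fold change over all libraries left out in turn ran from 0.73 to 1.70.

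Hes1, the most abundant of the effectors, had 33.4 and 37.4 CPM in the dCKO libraries and 26.7, 31.4 and 36.7 CPM in the controls. Its groups overlapped, with a log2 fold change of 0.17 (SE 0.16, adjusted p = 0.589 in edgeR). Hey1, a target of Notch and of BMP signals known from arteries, had 24.8 and 18.2 CPM in the dCKO libraries and 15.4, 19.1 and 14.1 CPM in the controls. Control replicate 2 lay above dCKO replicate 2, and the log2 fold change was 0.41 (SE 0.20, adjusted p = 0.253 in edgeR). It was 0.18 (SE 0.26) without dCKO replicate 1 and 0.62 (SE 0.24) without dCKO replicate 2, and Hey1 passed in neither fit.

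**Figure D3:**
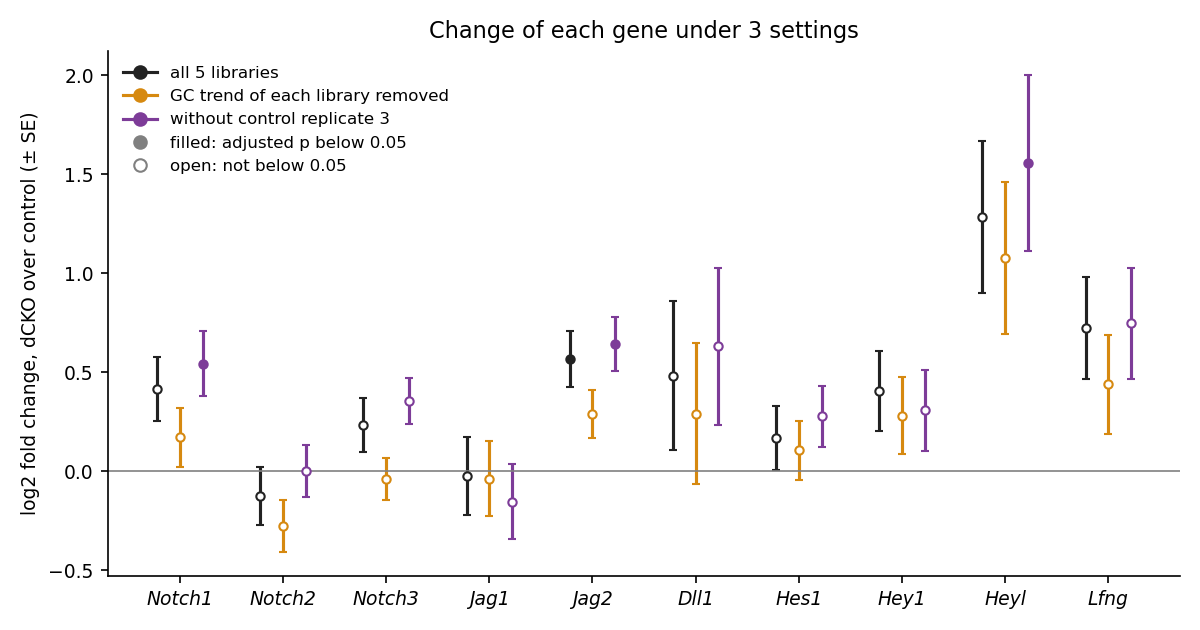
Log2 fold change (dCKO over control, ± SE) of each Notch gene in edgeR with all 5 libraries (black), with each library's GC trend removed (orange) and without control replicate 3 (purple); filled points have an adjusted p below 0.05. Jag2 is filled with all libraries, Notch1, Jag2 and Heyl are filled without control replicate 3, and none is filled with the GC trend removed.

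Ratios between members within a library do not depend on how libraries are scaled, and 6 were compared. With 2 against 3 libraries an exact permutation test has 10 assignments, so its smallest p is 0.1 and none could pass the threshold. The ratio of Notch2 to Notch1 counts was 2.09 and 1.92 in the dCKO libraries and 2.83, 2.97 and 2.88 in the controls. The controls were tightly grouped, control replicate 3 among them, and both dCKO libraries lay below all 3. On the log2 scale the difference was −0.53 (exact permutation p = 0.1 two-sided, the smallest the design allows, adjusted p = 0.36 over the 6 ratios). With the GC trend removed, the log2 fold changes of the same genes were −0.27 (SE 0.13) for Notch2 and 0.17 (SE 0.15) for Notch1. Hes1 to Heyl was the other ratio without overlap, at 2.38 and 5.25 in the dCKO libraries and 15.6, 5.80 and 6.15 in the controls (exact permutation p = 0.2, adjusted p = 0.36). Jag2 to Jag1 was 2.87 and 2.20 in the dCKO libraries and 1.81, 1.18 and 2.30 in the controls. These groups overlapped (exact permutation p = 0.3, adjusted p = 0.36), so the pair of Jagged genes was not shown to differ from each other in its change. Heyl to Hey1, Notch3 to Notch1 and Lfng to Notch1 overlapped as well, at exact permutation p = 0.3, 0.3 and 0.7.

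**Figure D4:**
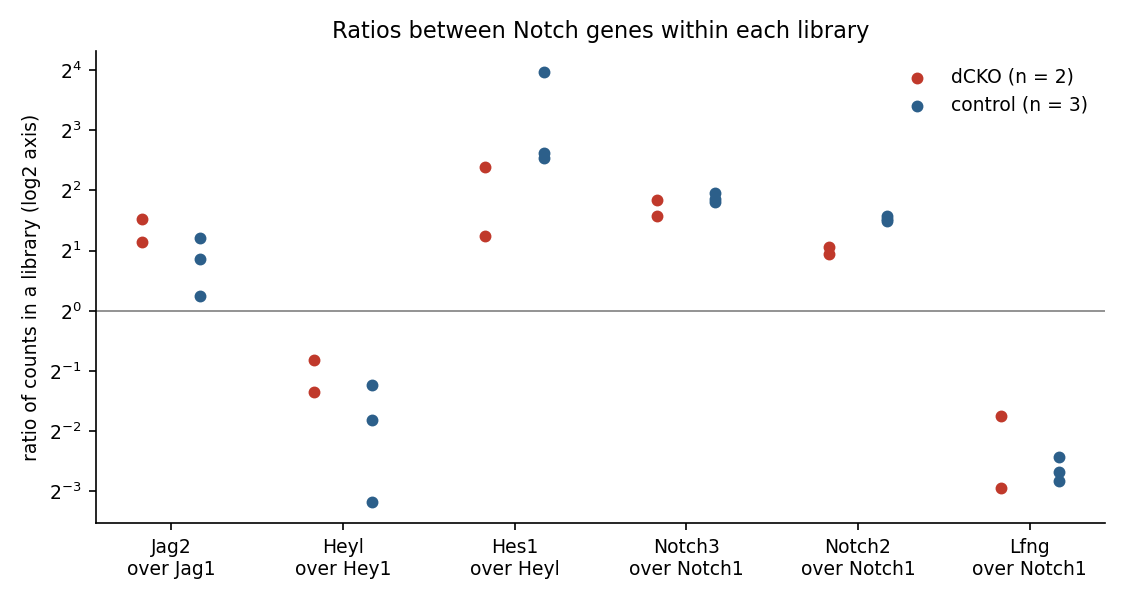
Ratios of counts between pairs of Notch genes within each library (log2 axis), dCKO (red, n = 2) beside control (blue, n = 3). Notch2 over Notch1 is 1.92 and 2.09 in the dCKO libraries, below the controls at 2.83 to 2.97, and Hes1 over Heyl is the other ratio whose groups do not overlap.

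The wider pathway was described with 48 further genes, of which 44 were tested. None of the 44 was called by edgeR, DESeq2 or limma-voom, against 6.42% of all tested genes called by edgeR, and 9 reached an unadjusted p below 0.05, where 21.5% of all tested genes did so. Their median log2 fold change was 0.11, with 29 positive and 15 negative. In 14 of them both dCKO libraries lay above all controls and in 4 below, where 19% and 18.6% of all tested genes did so. The 4 genes with too few counts to test, named after their values were seen, were the ligand gene Dll3, the Delta-like homologue Dlk2, Dner and the target gene Hes5. Dlk2 had 15 and 15 counts in the dCKO libraries and 1, 1 and 2 counts in the controls. Scaled, these were 1.39 and 1.15 CPM in the dCKO libraries and 0.131, 0.135 and 0.306 CPM in the controls, so its groups did not overlap. Those of Dll3 did not overlap either, in the other direction, with 0 counts in both dCKO libraries and 1 count in each control. The Hes5 count was 0 in both dCKO libraries and reached at most 2 in a control.

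No other receptor or ligand passed the test. Notch4, the endothelial receptor, had 15.6 ± 0.29 CPM in dCKO tissue and 11.6 ± 2.68 CPM in control tissue, and Dll4, the arterial ligand, 13.7 ± 1.58 CPM in dCKO tissue and 10.2 ± 2.18 CPM in control tissue (SD, n = 2 and 3). Of the glycosyltransferases, Mfng (Manic fringe, a relative of Lfng) had 11.2 ± 1.53 CPM in dCKO tissue and 7.60 ± 0.79 CPM in control tissue, a log2 fold change of 0.57 (adjusted p = 0.173 in edgeR), and Pofut1, which adds the fucose that fringe enzymes extend, one of 0.26 (adjusted p = 0.228 in edgeR). Mib2, a ubiquitin ligase of Notch ligands, had the smallest p of the 44. It measured 36.5 ± 3.42 CPM in dCKO tissue and 25.5 ± 4.93 CPM in control tissue, a log2 fold change of 0.52 (SE 0.17, adjusted p = 0.0844 in edgeR). Epn1, an epsin of ligand endocytosis, had a log2 fold change of 0.31 (adjusted p = 0.220 in edgeR). Of the gamma-secretase subunits, Psenen had 21.0 ± 0.41 CPM in dCKO tissue and 15.3 ± 2.81 CPM in control tissue, and Psen2 had 7.81 ± 0.33 CPM in dCKO tissue and 5.10 ± 0.73 CPM in control tissue, with adjusted p of 0.172 and 0.209 in edgeR.

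Of 10 genes of the nuclear complex none passed the test. Rbpj, the DNA-binding partner of the receptor's intracellular domain, named after its values were seen, had 56.7 ± 2.25 CPM in dCKO tissue and 65.4 ± 7.04 CPM in control tissue, a log2 fold change of −0.21 (SE 0.13, adjusted p = 0.389 in edgeR). Maml3, a Mastermind coactivator, had a log2 fold change of 0.29 (SE 0.14, adjusted p = 0.244 in edgeR). Among genes that limit the receptor, Itch, a ubiquitin ligase, had a log2 fold change of −0.32 (SE 0.14, adjusted p = 0.189 in edgeR) and Dtx3, a Deltex protein, one of 0.25 (adjusted p = 0.232 in edgeR). Nrarp, a target that feeds back on the Notch complex, had 20.5 ± 1.65 CPM in dCKO tissue and 15.1 ± 0.80 CPM in control tissue, a log2 fold change of 0.44 (SE 0.18, adjusted p = 0.175 in edgeR). Hes6, a relative of Hes1 known from neurogenesis and myogenesis, had one of 0.35 (adjusted p = 0.223 in edgeR). Without control replicate 3, 45 of the 48 were tested and 5 were called, Dlk2, Epn1, Mib2 and Psenen among them, where 12.7% of all tested genes were called.

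**Figure D5:**
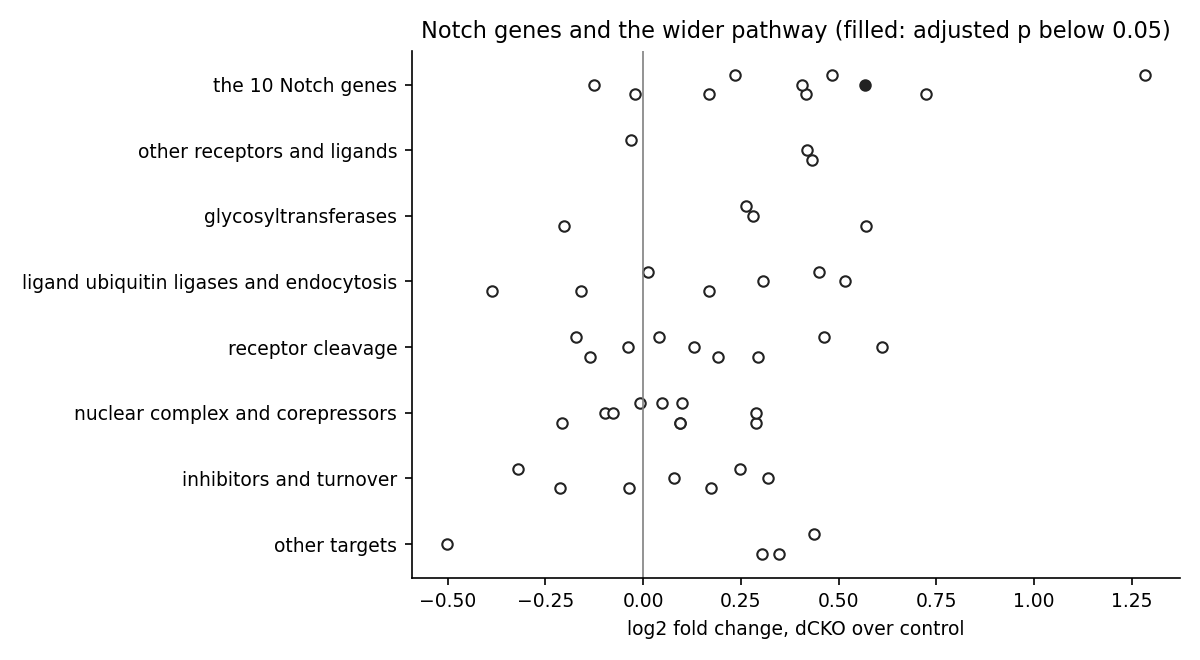
Log2 fold change (dCKO over control) of the 10 Notch genes and of 44 further pathway genes grouped by role, 1 point a gene, with genes below an adjusted p of 0.05 filled. Jag2 is the only filled point, and the 44 further genes spread from −0.50 to 0.61.

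Markers of cell types known to use Notch were set beside these values. Summed over 8 epithelial markers, the level was 462 to 481 CPM in the dCKO libraries and 302 to 393 CPM in the controls; all 8 had positive fold changes, 3 passed as higher (Krt8, Krt18 and Krt19), and the part of epithelium in the Jag2 result was not tested. Krt18, a keratin of simple epithelium, had 104 ± 13.1 CPM in dCKO tissue and 73.5 ± 11.2 CPM in control tissue, and Trp63, a factor of stratified epithelium, had 83.5 ± 4.68 CPM in dCKO tissue and 68.3 ± 10.2 CPM in control tissue. Summed over 6 mural cell markers, the level was 182 to 210 CPM in the dCKO libraries and 182 to 199 CPM in the controls. None of the 5 tested markers passed, and 4 had a positive fold change and 1 a negative one. Pdgfrb, the negative one, held most of the sum, at 141 ± 7.47 CPM in dCKO tissue and 144 ± 18.4 CPM in control tissue. Mcam had 26.6 ± 2.87 CPM in dCKO tissue and 19.7 ± 0.72 CPM in control tissue. Its log2 fold change was 0.43 (SE 0.17, adjusted p = 0.139 in edgeR). Kcnj8 had 1 and 2 counts in the dCKO libraries and 0 counts in every control. The 8 endothelial markers summed to 276 to 319 CPM in the dCKO libraries and 251 to 283 CPM in the controls. Of these 8, 5 had a positive fold change and 3 a negative one, and Cldn5 alone passed, as higher. The 5 arterial markers summed to 199 to 212 CPM in the dCKO libraries and 201 to 234 CPM in the controls, with none passing. Efnb2 held most of the arterial sum, at 164 ± 7.02 CPM in dCKO tissue and 170 ± 13.4 CPM in control tissue. Of the 5 arterial markers, 1 had a positive fold change and 4 a negative one. For 6 markers of arch core mesoderm the sums were 109 to 127 CPM in the dCKO libraries and 87.1 to 95.5 CPM in the controls, with none passing. The 7 markers of neural crest mesenchyme summed to 1638 to 1700 CPM in the dCKO libraries and 1734 to 1920 CPM in the controls, with Alx4 passing as higher and Prrx1 and Dlx5 as lower. The 8 neural and glial markers summed to 35.5 to 44.0 CPM in the dCKO libraries and 26.9 to 34.0 CPM in the controls. Isl1 was counted both in this sum and in that of arch core mesoderm, so these sums are not separate. It had 16.8 and 13.1 CPM in the dCKO libraries and 16.6, 22.7 and 6.87 CPM in the controls. Sox10, a factor of early glia and the only one of these 8 to pass, had 59 and 22 counts in the dCKO libraries and 0 counts in every control. Blood differed most. The 8 erythroid markers summed to 55551 to 79767 CPM in the dCKO libraries and 3405 to 4415 CPM in the controls, all 8 passing as higher. The 5 megakaryocyte and platelet markers summed to 89.1 to 162 CPM in the dCKO libraries and 8.40 to 15.1 CPM in the controls, with all 4 that were tested passing. The 5 myeloid markers summed to 20.4 to 30.4 CPM in the dCKO libraries and 8.93 to 11.1 CPM in the controls, with 1 of 4 tested passing. The part of these cells in the levels of the Notch genes was not tested.

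By the distance between log2 CPM values centred on each gene's mean over the 5 libraries, the tested genes nearest to Jag2 were Ctsd, a lysosomal protease (distance 0.0947), Pqlc1 (distance 0.0965) and Rhbdf1, an inactive rhomboid protein (distance 0.0986). Ctsd had 208 and 185 CPM in the dCKO libraries and 124, 116 and 138 CPM in the controls. Like Jag2, these genes were highest in dCKO replicate 1 and, among the controls, highest in replicate 3, which follows from their choice by closeness to Jag2. Ctsd and Rhbdf1 passed the test and Pqlc1 did not (adjusted p = 0.101 in edgeR). With the GC trend removed Ctsd still passed (adjusted p = 0.0231 in edgeR) and Rhbdf1 did not (adjusted p = 0.118 in edgeR).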

How the data were processed

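The authors deposited raw read counts per gene symbol for 5 libraries and a table of their own comparison, with mean normalized counts (a signal), their ratio as a fold change, its log2 value, and p-values. The build mm9 and the tools DESeq 1.16.0 and HTSeq 0.5.4p3 are named, per the submitters' processing notes. Aligner, annotation and use of strand: not given in the sources used here. Whether reads of overlapping genes were told apart is therefore not known. In the authors' deposited table, reads in no gene took 41.9% of mean normalized counts. Libraries were grouped by title, and count columns matched on group and replicate number (headed WT for control). Chi-square per gene between replicates was 4.28 to 13.4, more than sampling noise gives, and all were kept separate.

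The count analysis used edgeR 4.0.16 in R 4.3.3: filterByExpr (minimum count 10, minimum total 15), TMM, quasi-likelihood F test (two-sided), Benjamini-Hochberg adjustment over 12710 genes, SE from the size of the log2 fold change divided by the root of F. Alternatives used DESeq2 1.42.0, limma 3.58.1 (voom), RLE, total counts, other filters, libraries left out, the replicate number as a block, and a GC trend (spline) removed per library; GC content was found for 99.3% of tested genes. Exon lengths and GC content are from GENCODE M21 and promoters from RefSeq, both another build (GRCm38) than mm9, matched by symbol. Within-library ratios are of the counts as deposited, and their log2 differences had 0.5 counts added.

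The 10 genes and all lists were chosen with earlier results of these data known. Named besides the 10 were Yap1 and Wwtr1, the 2 genes of smallest p in each group of the wider pathway (or any that passed), the most abundant markers of cell types near a result (others given as sums), and the 3 genes nearest in pattern to the member of smallest p. Alx4, Dlx5, Prrx1, Krt8, Krt19, Cldn5, Kcnj8 and Sox10 were named after their values were seen. Some genes covered by this rule are not reported here.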

Additional observations from a re-analysis of the deposited data

How the results depend on the processing

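Of the 89 fold changes of the 10 genes recomputed with all libraries kept, 80 held their direction and side of the threshold. Jag2 passed in each such alternative except with the GC trend removed, where 0 of the 10 were called. With RLE size factors, with TMM scaling without the erythroid genes and with no filter on low counts, 2 of the 10 were called, Heyl being added. In that order, 6.45%, 6.54% and 6.21% of all tested genes were called. Jag1 stood at 0.0024 in limma-voom and Notch3 reversed to −0.037 with the GC trend removed. With libraries left out, the log2 fold change of Jag1 ran from −0.15 to 0.20 and that of Notch2 from −0.33 to 0.070, neither called in any of these fits; Notch1 ran from 0.14 to 0.66, Notch3 from 0.11 to 0.37, Hes1 from 0.064 to 0.28 and Dll1 from 0.32 to 0.63, with the call of Notch1 in 1 of these fits alone. The cause was not tested. The number of lower genes among all tested was 469 with total counts and 305 with no filter, where 1 of the 48 further pathway genes (Mib2) was called. With libraries left out in turn, 442 to 1637 genes were called, 403 to 950 higher and 39 to 687 lower; 0 to 3 of the 10 and 0 to 5 of the 48 were called. With a single dCKO library left, its spread was assumed equal to that of the controls. Correlations of deviations between same-numbered libraries were 0.08 and −0.005. With 2 dCKO libraries, whose deviations mirror each other, these values cannot decide whether the replicate numbers pair the libraries. With the replicate number as a block 2121 genes (16.7% of those tested) were called, 1200 higher and 921 lower. Among them were 4 of the 10 (Notch1, Notch3, Jag2 and Heyl) and 5 of the 48. Control replicate 3, the only library with that number, then had a term of its own. It added nothing to the difference between groups, so this fit did not use all 5 libraries for it. The log2 fold change of Jag2 was 0.65 there and 0.64 without control replicate 3. The log2 difference of Lfng to Notch1 ran from −0.31 to 0.88 with libraries left out; the other 5 ratios held their direction. Of 20 group levels per kb, 9 moved by at least their SD when the length of the longest transcript was used. Counts of 16 to 50 for Dll1, which fell below the stricter filter, and of 13 in the lowest Heyl library limit what could be seen there.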
